A study of Mus musculus with 9 samples.

Results

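The genes of oxidative phosphorylation were followed across the 9 libraries of sorted mouse bone marrow progenitors. Members were picked by symbol. Nuclear genes had to begin with Nduf, Cox4 to Cox8, Atp5, Uqcr or Sdha to Sdhd, mitochondrially encoded genes had to begin with mt-Nd, mt-Co, mt-Atp or mt-Cyt, and a symbol containing -ps, which marks a pseudogene, was left out. The rule gave 106 of the 37882 rows of the table. Of these, 93 were nuclear and 13 lay on the mitochondrial genome. By role, the nuclear genes were 36 subunits of complex I, 4 of complex II, 8 of complex III, 20 of complex IV, 16 of complex V and 9 assembly or other factors. Ndufa4 and Ndufa4l2 carry a complex I name and were counted with complex IV, where the Ndufa4 protein is now placed. Cyc1 and Cycs, which encode cytochrome proteins, fall outside the rule by name.

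Oxidative phosphorylation moves electrons from NADH and succinate through complexes I to IV to oxygen, and complex V uses the resulting proton gradient to make ATP. Complexes I, III, IV and V are built from parts of both genomes, so that the nuclear and the mitochondrial messages have to be supplied together, while complex II is wholly nuclear. Blood stem cells are known for relying more on glycolysis than their dividing progeny, which draw more on mitochondrial respiration.

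The cells were LSK cells, marrow cells sorted for Sca1 and cKit and for the absence of lineage markers, a population of stem cells and early progenitors. Every mouse carried rtTA, a transactivator that needs doxycycline, at Rosa26 on a B6/129 background. K9M mice also carried H3K9M at Col1a1, a histone H3 in which lysine 9 is methionine, and K36M mice carried H3K36M at the same place, with lysine 36 changed instead. The rtTA mice carried no histone transgene, so that no group had an unmutated one. There were 3 mice in each group, aged 6 to 8 weeks, and each library came from 1 mouse. The drinking water of all groups held 2 mg/ml doxycycline and 10 mg/ml sucrose. Doxycycline is an antibiotic known to inhibit the mitochondrial ribosome, and no group went without it. The length of treatment is not given in the sources used here.

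Values are RPKM, reads scaled to gene length and to sequencing depth. The steps between the lowest values gave estimated depths of 15870000 to 50320000 reads. The sort marker Ly6a (Sca1) stood at 118.8 to 292.0 RPKM with overlapping groups. Kit stood at 88.1 to 102.5 in rtTA, 81.1 to 92.0 in K9M and 53.3 to 74.2 in K36M, and Cd34 at 320.5 to 398.7, 381.5 to 431.9 and 285.5 to 309.5 RPKM, so that both were lowest in K36M without overlap. Cd3e, a marker of T cells, stood at no more than 0.168. Cd3e was listed at 0 in 2 K9M libraries. The summed level of 10 mature granulocyte markers was 726 to 6415 RPKM in rtTA, 453 to 1092 in K9M and 181 to 418 in K36M, with K36M below both. Summed over 7 red cell markers the levels were 82.5 to 149.1, 148.4 to 232.4 and 172.4 to 308.8 RPKM, with K36M above rtTA. For 8 B lineage markers they were 37.6 to 51.1, 19.9 to 24.9 and 31.2 to 36.9, with K9M lowest, for 7 T lineage markers 9.20 to 12.6, 12.7 to 17.9 and 10.3 to 14.5, with K9M above rtTA, and for 7 monocyte and macrophage markers 88.3 to 239.8, 48.5 to 100.9 and 127.6 to 368.7, with K36M above K9M. Only 2 of the 7 T lineage markers reached 1 RPKM in at least 3 libraries, so that their sum rests on few genes. The part of any of these cell types in the results was not tested. RtTA replicate 3 had the most Ly6g, at 42.1 RPKM. In bulk RNA, fewer cells of a type and less RNA per cell cannot be told apart.

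Sequences are given first for 2 places where a member's value depends on how reads are shared out. In mouse the coding sequences of mt-Atp8 and mt-Atp6 overlap by 43 bases on the same strand (mm10, chrM:7927-7969). The capitals mark the start codon of mt-Atp6 and the stop codon of mt-Atp8.
mt-Atp8 and mt-Atp6: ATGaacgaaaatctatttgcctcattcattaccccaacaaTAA
These bases are 21.1% of mt-Atp8, so that part of its level cannot be told apart from mt-Atp6. Ndufs5 on chromosome 4, a member with high values in K36M, has a processed pseudogene, BC002163, on chromosome 16. Over 319 aligned coding bases the 2 were identical at 317. Coding bases 51 to 110 of Ndufs5 (mm10, chr4:123715970-123716029, minus strand) and the matching bases of the copy (chr16:42955681-42955740, plus strand) hold both differences, shown in capitals. They come from the GENCODE M21 transcripts.
Ndufs5: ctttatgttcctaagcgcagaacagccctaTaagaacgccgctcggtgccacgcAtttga
BC002163: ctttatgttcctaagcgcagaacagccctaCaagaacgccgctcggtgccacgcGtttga
A read that covers neither difference fits both places, and how the submitters counted such reads is not given in the sources used here.

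Oxidative phosphorylation genes were among the most abundant messages of these cells. The 93 nuclear members had a median of 58.8 RPKM over the means of 9 libraries. The 12926 genes with at least 1 RPKM in at least 3 libraries, which are the genes tested, had a median of 8.48, and 89 nuclear and all 13 mt- members were among them. The median of those 89, 63.7 RPKM, was exceeded by 7.91% of all genes tested. The highest nuclear level was that of Ndufa4 of complex IV, at 427 RPKM, with Cox6b1, which holds together the enzyme's dimer, at 322 and Cox8a at 272. In complex V the subunits Atp5a1 and Atp5b stood at 363 and 309 RPKM and Atp5e, of the central stalk, at 182. Uqcrc1, a core protein of complex III, stood at 166 RPKM, Uqcrh at 109 and Uqcr11 at 105. Complex I subunits were lower, led by Ndufb9 at 156, Ndufb11 at 119 and Ndufa6 at 116 RPKM, and complex II had Sdhd at 110 (109.99), Sdha, the flavoprotein that oxidises succinate, at 81.3 and Sdhb at 46.6. The 9 factors were lower still, from 5.87 RPKM for Ndufaf5 to 25.7 for Ndufaf2, a complex I assembly factor, with Ndufaf4 at 14.1 and Ndufaf3 at 14.0.

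**Figure D1:**
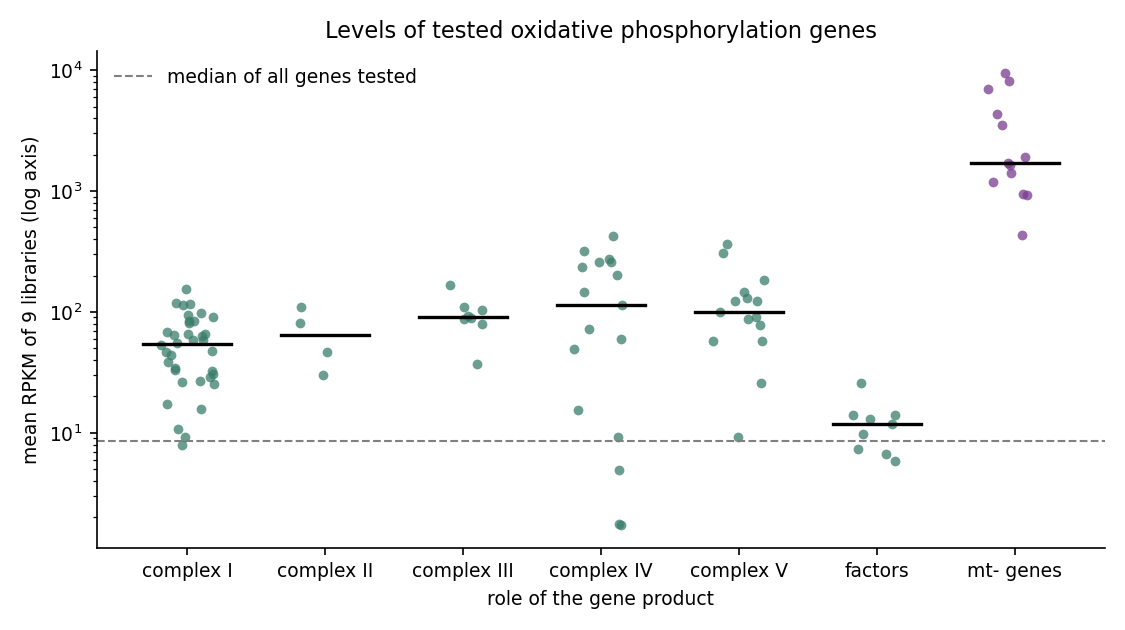
Mean RPKM over 9 libraries (log axis) of the 102 tested members, 1 point a gene, by the role of the product, with the median of each role as a black bar and the median of all 12926 genes tested as a dashed line. Factors lie near that line (median 11.7 RPKM), complexes I to V have medians of 54.0 to 115 RPKM, and all 13 mt- genes lie above 400 RPKM.

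The 13 mt- genes covered more than an order of magnitude. They had a median of 1712 RPKM. The complex V gene mt-Atp6 was highest at 9412, followed by the 3 core subunits of complex IV, mt-Co2 at 8062, mt-Co3 at 7005 and mt-Co1 at 4304 RPKM. The cytochrome b gene of complex III, mt-Cytb, stood at 3513 and mt-Atp8 at 1923 RPKM. The 7 complex I genes filled the lower end, mt-Nd4 at 1712, mt-Nd1 at 1640.2, mt-Nd6 at 1400.2, mt-Nd2 at 1184, mt-Nd5 at 954, mt-Nd4l at 922 and mt-Nd3 at 433 RPKM. The genes therefore fell in the order complex IV and mt-Atp6, complex III, mt-Atp8, complex I, although those on the same strand are cut from a shared precursor transcript. The genes mt-Atp8, mt-Nd4l and mt-Nd3 are short, at 204, 297 and 348 bases. The part of gene length and of overlaps in this order was not tested. The gene mt-Nd6 is the only 1 of the 13 on the opposite strand, and its 519 bases share 14 with mt-Nd5. Without strand in the counting, reads from the other strand could not be told apart. Neighbours in the order whose ranges over the 9 libraries overlapped, such as mt-Co2 and mt-Co3, were not separated.

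Where a subunit has tissue isoforms, the general form dominated. Cox4i1 stood at 236 RPKM and Cox4i2, a form known from lung, at 1.76. Cox6a1 stood at 145 RPKM and the heart and muscle form Cox6a2 at 9.18. Cox6b1 stood at 322 and the testis form Cox6b2 at 15.6 RPKM, Cox7a2 at 115 and the muscle form Cox7a1 at 1.72, and Ndufa4 at 427 and Ndufa4l2 at 4.93. Cox8a stood at 272 RPKM, while Cox8b and Cox8c were listed at 0 in all 9 libraries. Cox7b stood at 72.6 RPKM, and Cox7b2 was above 0 in 1 library only, at 0.1004 in K36M replicate 2. Of the 3 genes for the identical c subunit of complex V, Atp5g3 stood at 123 (122.6), Atp5g2 at 26.1 and Atp5g1 at 9.19 RPKM. Cox7b2, Cox8b, Cox8c and Atp5l2, the last annotated as a pseudogene, were the 4 members below the filter.

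A level per length also depends on the gene model and on copies. Near-identical copies, with at least 95% identity over at least 200 bases, were found for 21 nuclear and 9 mt- members. Several members stand beside a copy with a higher RPKM, which is per length and so does not give the share of reads. Ndufb4 had 8.01 RPKM and its copy Ndufb4c 89.1, Atp5g1 had 9.19 and Gm10039 48.8, Cox6c had 59.4 and Cox6c2 151, and Atp5l had 124 and Gm10221 207. In rtTA replicate 1, adding the reads of copies took Ndufb4 from 8.24 to 29.1 RPKM and Atp5g1 from 10.5 to 14.8. There it took Cox6c from 68.8 to 80.6 and Atp5l from 129 to 141 RPKM. The gene Ndufa12 was lowest in K9M replicate 1, at 23.9 RPKM against 29.0 to 39.6 in the other 8 libraries, and its copy Gm15920 was highest there, at 86.2 against 28.1 to 60.9. Opposite-strand genes overlapped exons of 32 members. With the reads of copies added to their members, a setting chosen after seeing the data, limma called 0 of 102 members in each comparison. Of all 12908 genes tested there, 12 were called higher and 3 lower in K9M against rtTA. In K36M against rtTA 75 were called higher and 120 lower, and in K36M against K9M 132 and 196.

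Summed levels set the 2 genomes side by side in each library. The nuclear members summed to 8276, 6294 and 6299 RPKM in rtTA replicates 1 to 3, to 8680.2, 7934 and 7071 in K9M and to 9359, 7136 and 6852 in K36M. Replicate 1 was highest in each group and the groups overlapped. The mt- members summed to 56892, 40872 and 41928 RPKM in rtTA, to 40889, 39063 and 40995 in K9M and to 36325, 40738 and 44484 in K36M. RtTA replicate 1 stood alone at the top and the groups overlapped here too. The highest library exceeded the lowest 1.49-fold for the nuclear sum and 1.57-fold for the mt- sum.

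The ratio of the sums, which no scaling of a whole library can change, was tight in the controls and lower in K9M. It was 6.87, 6.49 and 6.66 in rtTA, a mean of 6.67 ± 0.191 (SD, n = 3). In K9M it was 4.71, 4.92 and 5.80, a mean of 5.14 ± 0.576 (SD, n = 3). Every K9M library lay below every control. In K36M it was 3.88, 5.71 and 6.49, a mean of 5.36 ± 1.34 (SD, n = 3), so that the highest K36M library equalled the lowest control to 3 digits and the lowest was the lowest of all 9. The lower ratio in K9M held within each shared complex. For complex I it was 4.46 to 5.14 in rtTA and 3.09 to 4.18 in K9M. For complex III it was 5.39 to 5.52 and 3.82 to 4.66, for complex IV 8.84 to 9.28 and 6.93 to 8.16, and for complex V 6.94 to 8.33 and 4.72 to 6.08. K36M ranges overlapped the controls for complexes I, III and IV, at 2.45 to 4.89, 2.95 to 5.57 and 5.49 to 9.28, and lay below them for complex V, at 4.48 to 6.46. These ratios were chosen with earlier results known and carry no test. RtTA replicate 3, the library with the most Ly6g, had a ratio of 6.66, between those of the other controls. That is 1 library, and the part of granulocytes in the ratios was not tested.

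**Figure D2:**
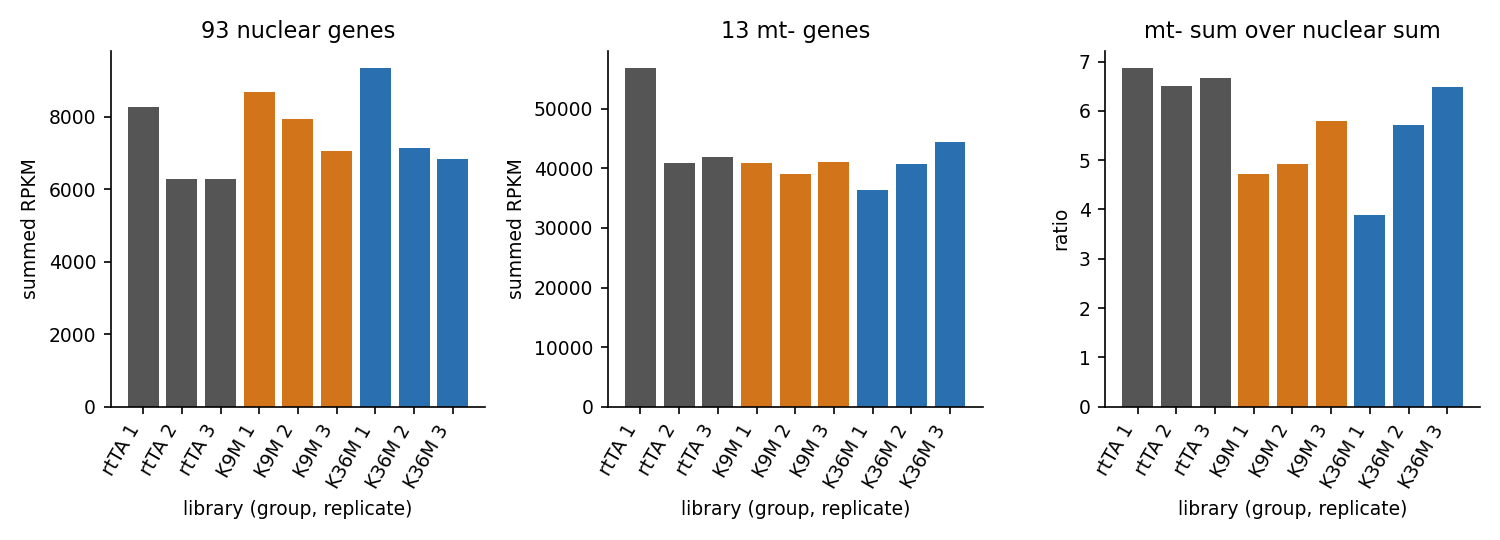
Summed RPKM of the 93 nuclear genes, summed RPKM of the 13 mt- genes and the ratio of the sums, 1 bar for each of the 9 libraries (grey rtTA, orange K9M, blue K36M). The ratio lies at 6.49 to 6.87 in rtTA, at 4.71 to 5.80 in K9M and at 3.88 to 6.49 in K36M.

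Nuclear members moved together from library to library. Replicate 1 was the highest of its group for 77 of the 89 tested nuclear members in rtTA, 66 in K9M and 82 in K36M, against 32.8%, 37.6% and 33.3% of all genes tested. For the 13 mt- members it was the highest for 12 in rtTA, 4 in K9M and 1 in K36M. Measured as the median deviation from each gene's own mean in log2 units, the nuclear members stood at 0.14, -0.23 and -0.26 in rtTA, 0.19, 0.08 and -0.07 in K9M and 0.33, -0.03 and -0.10 in K36M. The mt- members stood at 0.43, -0.03 and 0.06, then -0.07, -0.07 and -0.03, then -0.33, -0.07 and 0.11. Nuclear and mt- members were thus both high in rtTA replicate 1 and went opposite ways in K36M replicate 1.

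Short coding genes, counted with the members among them, shared the nuclear pattern. The tested nuclear members had a median exon length of 1718 bases against 4355 for coding genes tested, and 39 of the 89 were under 1500 bases. The 845 coding genes under that length, a limit chosen after seeing the data, deviated by 0.15, -0.16 and -0.19 in rtTA, 0.18, 0.03 and -0.02 in K9M and 0.20, -0.02 and -0.16 in K36M. The 845 include those 39 and the mt- members and ribosomal protein genes under that length, so that the sets are not independent. The 4651 coding genes over 5000 bases went the other way, at -0.15 in rtTA replicate 1, -0.06 in K9M replicate 1 and -0.08 in K36M replicate 1. Cytosolic ribosomal protein genes were high in the same 3 libraries, at 0.22, 0.34 and 0.22, and mitochondrial ribosomal protein genes stood at 0.06, 0.08 and 0.26. The part of gene length in the values of the nuclear members was not tested.

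**Figure D3:**
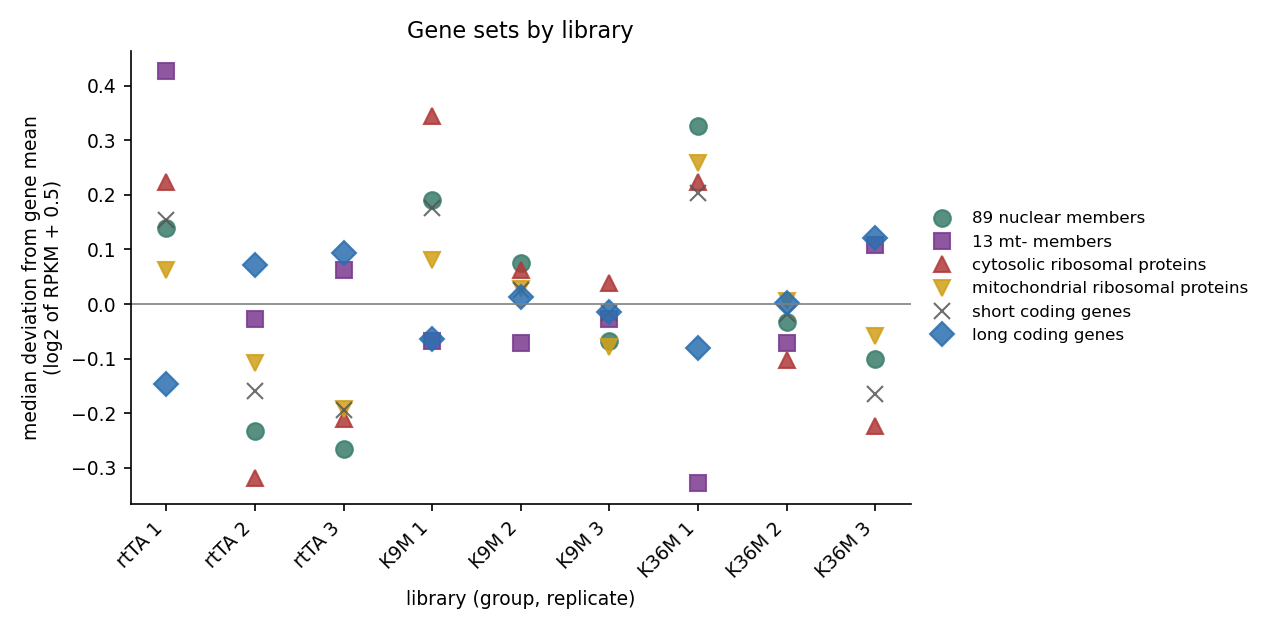
Median deviation from each gene's mean over 9 libraries (log2 of RPKM + 0.5) for 6 gene sets, 1 marker a set and library, with short coding genes under 1500 and long ones over 5000 exon bases. The sets overlap, since members and ribosomal protein genes under 1500 bases are also counted as short genes. Nuclear members, ribosomal protein genes and short genes are above 0 in replicate 1 of every group, long genes are below 0 there, and the mt- members range from -0.33 in K36M replicate 1 to 0.43 in rtTA replicate 1.

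In K9M against rtTA the nuclear members stood slightly higher and the mt- members slightly lower, with no member past the test. Fold changes are on the scale of log2(RPKM + 0.5), from limma fitted to all 9 libraries, with Benjamini-Hochberg adjustment over the 12926 genes. Of the 102 tested members 0 were called at an adjusted p under 0.05, and 2 were higher and 0 lower at an unadjusted p under 0.05. Over all genes tested, 0.116% were called, 7.11% had an unadjusted p under 0.05, and 4% had such a p and were higher. The log2 fold change was above 0 for 79 of 89 nuclear members, with a median of 0.17 (0.175), and for 0 of 13 mt- members, with a median of -0.26, beside 51.3% and a median of 0.007 over all genes tested. By complex the nuclear medians were 0.17 for complex I, 0.19 for II, 0.19 for III, 0.18 for IV, 0.24 for V and 0.09 for the factors. All 15 tested complex V subunits and all 8 of complex III were above 0.

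Values of single members showed how small these differences were beside the spread. Ndufb7, an accessory subunit of complex I, stood at 14.5, 12.9 and 11.4 RPKM in rtTA and at 19.2, 18.2 and 15.5 in K9M. The groups did not overlap, and limma gave a log2 fold change of 0.43 with an SE of 0.18 and an adjusted p of 0.685. Cox4i2 stood at 0.92, 1.73 and 1.07 RPKM in rtTA and at 1.85, 1.76 and 2.49 in K9M, a log2 fold change of 0.56 (limma adjusted p 0.661), near the filter of 1 RPKM. Those were the 2 members under the unadjusted threshold. Among the mt- members, mt-Nd4l, the short complex I gene whose last 7 bases lie in mt-Nd4, had the smallest p. It stood at 1085, 1116 and 1097 RPKM in rtTA and at 657, 865 and 829 in K9M, every K9M library below every control, with a log2 fold change of -0.50 (limma adjusted p 0.729). The SD of mt-Nd4l was 15.8 RPKM in rtTA, 111 in K9M and 313 in K36M, so that K36M added to the pooled spread. Beside it mt-Nd2 stood at 1393, 1383 and 1237 against 1042, 1043 and 1182 RPKM, a log2 fold change of -0.30 (limma adjusted p 0.754). Ndufv3 (0.23), Sdha (0.20), Sdhb (0.26), Uqcr11 (0.32), Uqcrfs1 (0.21), Cox7b (0.21), Atp5e (0.55), Atp5j2 (0.34), Ndufaf6 (0.32) and Atp5s (-0.34), the other members with the smallest p of their role, had limma adjusted p of 0.701 to 0.817.

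Counted without a test, 8 nuclear members lay above all 3 controls in all 3 K9M libraries and 4 mt- members lay below them. The former were Ndufb2, Ndufb7, Ndufs3 and Ndufv3 of complex I, Sdha, Cox4i2, and Atp5a1 and Atp5j2 of complex V. The latter were mt-Cytb, mt-Nd2, mt-Nd4 and mt-Nd4l. Over all genes tested 7.09% lay above and 5.43% below. The nuclear median was 0.30 without rtTA replicate 1, 0.096 without rtTA replicate 3 and 0.11 without K9M replicate 1, and the mt- median was -0.088 without rtTA replicate 1. With each library scaled to the sum of genes that are not mt- genes, the median of all genes shifted to -0.11, the nuclear median to 0.051 and the mt- median to -0.39.

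In K36M against rtTA the medians were similar, and 1 member, Cox6a2, stood apart. The comparison shares its controls with the previous 1. Of 102 tested members 0 were called by limma, and 6 were higher and 0 lower at an unadjusted p under 0.05, where 1.5% of all genes were called, 19.1% had such a p and 10.2% had it and were higher. The log2 fold change was above 0 for 78 of 89 nuclear members, with a median of 0.17 (0.174), and for 0 of 13 mt- members, with a median of -0.24, beside 52.3% and a median of 0.015 over all genes tested. Medians by complex were 0.14 for I, 0.15 for II, 0.09 for III, 0.18 for IV, 0.22 for V and 0.20 for the factors. The groups did not overlap for 5 members, all higher in K36M, against 11.6% of all genes above and 10.6% below. They were Ndufv3, Cox6a2, Atp5b, Ndufaf3 and Ndufaf6. Without K36M replicate 1 the nuclear median was 0.0365 and the mt- median -0.12. Without rtTA replicate 1 they were 0.29 and -0.093, and without rtTA replicate 2 the nuclear median was 0.10 (0.104).

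**Figure D4:**
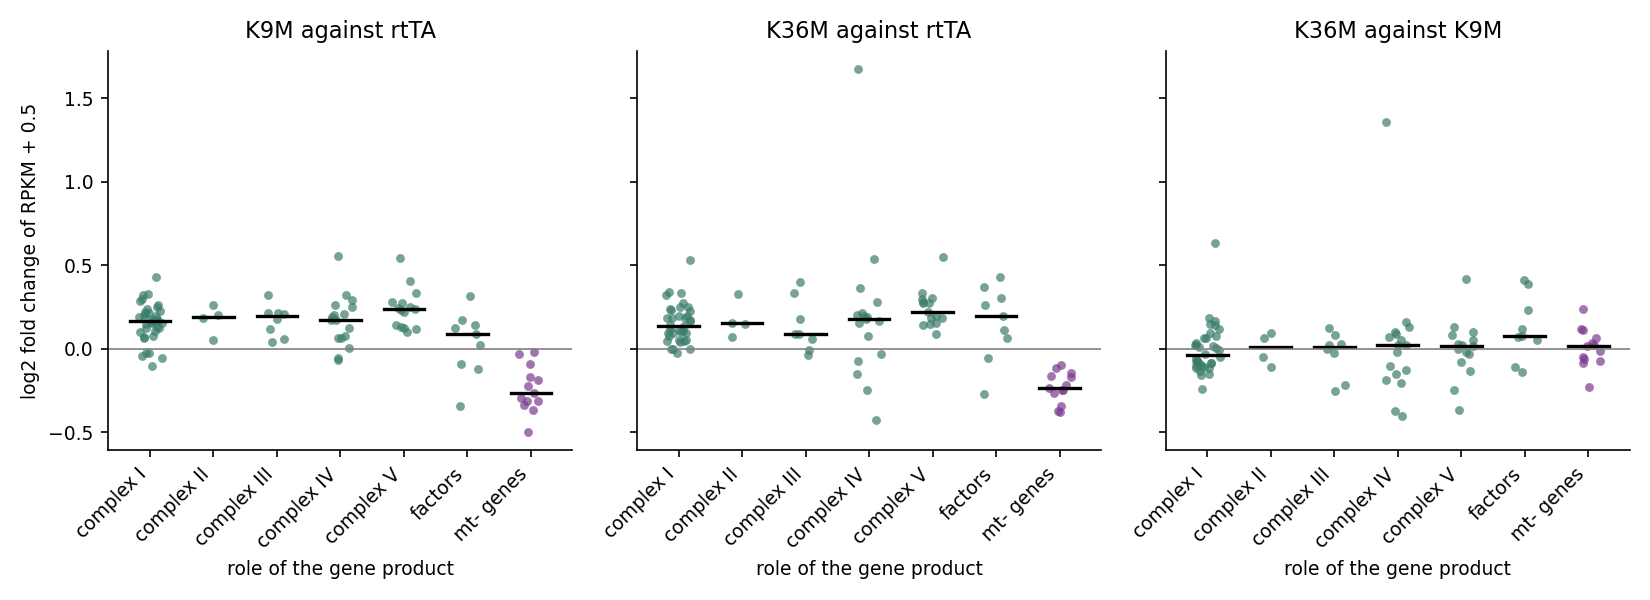
Log2 fold change (RPKM + 0.5) of the 102 tested members in the 3 comparisons, 1 point a gene, by the role of the product, with medians as black bars. Against rtTA the nuclear medians lie between 0.09 and 0.24 and the mt- medians at -0.26 and -0.24, all roles lie between -0.04 and 0.07 in K36M against K9M, and Cox6a2 is the single point above 1.

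Cox6a2 encodes the heart and muscle form of a nuclear complex IV subunit. The gene (ENSMUSG00000030785) lies at chr7:128205435-128206387 (mm10, minus strand). It stood at 8.45, 2.03 and 5.06 RPKM in rtTA, at 9.85, 3.40 and 5.57 in K9M and at 19.7, 10.5 and 17.98 in K36M. Every K36M library lay above every library of the other groups. Group means were 5.18 ± 3.21, 6.27 ± 3.28 and 16.1 ± 4.91 RPKM (SD, n = 3). In limma the log2 fold change was 1.68 (SE 0.49) against rtTA with an adjusted p of 0.122, and 1.36 (SE 0.49) against K9M with an adjusted p of 0.175. The replicate numbers paired rtTA with K36M by their correlated deviations in these data, and not by a labelled design. With the replicate block the limma adjusted p of Cox6a2 against rtTA was 0.0146, so that 1 of 102 members was called beside 2.33% of all genes. The block was fitted over all 9 libraries, K9M included, whose numbers did not pair with either group. Left-out libraries kept the fold change at 1.18 to 2.09 (2.095). The general form Cox6a1 stood at 172.9, 120.6 and 107 in rtTA, 160 (159.6), 150 (150.5) and 134 in K9M, and 195, 143 and 122 RPKM in K36M, with overlapping groups. Exon bases of Cox6a2 overlap Itgad on the opposite strand over 70 bases, and Itgad stood at 0.263 RPKM.

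Ndufv3 is an accessory subunit of the NADH-binding module of complex I. It stood at 27.7, 23.8 and 24.9 RPKM in rtTA and at 33.7, 32.3 and 29.9 in K36M, with no overlap. Its log2 fold change was 0.32 (limma adjusted p 0.146). Ndufaf3 (ENSMUSG00000070283, chr9:108565537-108567434), a complex I assembly factor, stood at 14.6, 10.6 and 12.2 RPKM in rtTA, at 13.1, 11.4 and 13.2 in K9M and at 20.6, 14.8 and 15.7 in K36M. K36M lay above both other groups, with log2 fold changes of 0.43 (limma adjusted p 0.183) and 0.41 (0.193). Cox4i2 (0.54), Ndufaf6 (0.37) and Sdhb (0.33) were the other 3 members with an unadjusted p under 0.05, at limma adjusted p of 0.239 to 0.261. For Ndufs5 (0.53), Sdha (0.16), Uqcr11 (0.40), Uqcrq (0.34), Atp5d (0.27), Atp5b (0.27), mt-Nd5 (-0.37) and mt-Nd2 (-0.26) the limma adjusted p ran from 0.265 to 0.445. The complex I gene mt-Nd4l, at 584, 859 and 1208 RPKM in K36M, lay on both sides of its controls.

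Between K36M and K9M the medians of these genes lay near 0. Of 102 tested members limma called 0, where 2.52% of all genes were called, and 3 were higher and 0 lower at an unadjusted p under 0.05, beside 18.8% of all genes in either direction and 9.31% higher. The log2 fold change was above 0 for 48 of 89 nuclear and 7 of 13 mt- members, with medians of 0.012 and 0.019 beside 51.1% and a median of 0.008 over all genes tested. Complex I had a median of -0.04, complex II of 0.008, III of 0.011, IV of 0.022, V of 0.018 and the factors of 0.07. K36M lay above K9M in all libraries for Ndufs5, Cox6a2, Cox8a, Atp5sl, Ndufaf3 and Ndufaf4, and below for mt-Nd6, against 14.5% and 13.4% of all genes. Without K36M replicate 1 the nuclear median was -0.12, and with libraries scaled to the sum of genes that are not mt- genes it was 0.12 and the median of all genes 0.11.

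Ndufs5, an accessory subunit of complex I (ENSMUSG00000028648, chr4:123712710-123718202), had the smallest p after Cox6a2 in that comparison. It stood at 36.2, 27.0 and 19.0 RPKM in rtTA, at 28.03, 23.0 and 23.1 in K9M and at 47.2, 40.2 and 29.9 in K36M. K36M lay above K9M in all libraries and overlapped rtTA. The log2 fold change was 0.63 against K9M (SE 0.24, limma adjusted p 0.187). The copy BC002163 stood at 14.1, 21.2 and 12.8 RPKM in K9M and at 10.3, 7.16 and 8.97 in K36M, which is the opposite order. With the copy's reads added, Ndufs5 stood at 33.3, 30.9 and 27.9 in K9M and at 51.0, 42.8 and 33.2 (33.25) in K36M, the log2 fold change was 0.44 and the limma adjusted p 0.286. Ndufaf4, another assembly factor of complex I, stood at 12.9, 12.6 and 11.5 RPKM in K9M and 17.1, 16.1 and 15.7 in K36M, a log2 fold change of 0.39 (limma adjusted p 0.298), while rtTA replicate 2 had 18.6. Ndufs1 (0.18), Sdhc (-0.11), Sdhd (0.094), Uqcrfs1 (-0.22), Uqcrh (-0.25), Cox7a2l (-0.40), Atp5e (-0.36), Atp5g2 (0.42), mt-Nd6 (-0.23) and mt-Nd3 (0.24) had limma adjusted p of 0.357 to 0.813. Cox7a2l was counted with complex IV by its name, and encodes a factor known to join complexes III and IV into supercomplexes. Its copy Gm6969 stood at 28.4 RPKM in rtTA replicate 2 and 55.8 in K9M replicate 2. In the other 7 libraries the copy stood at 2.87 at most.

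**Figure D5:**
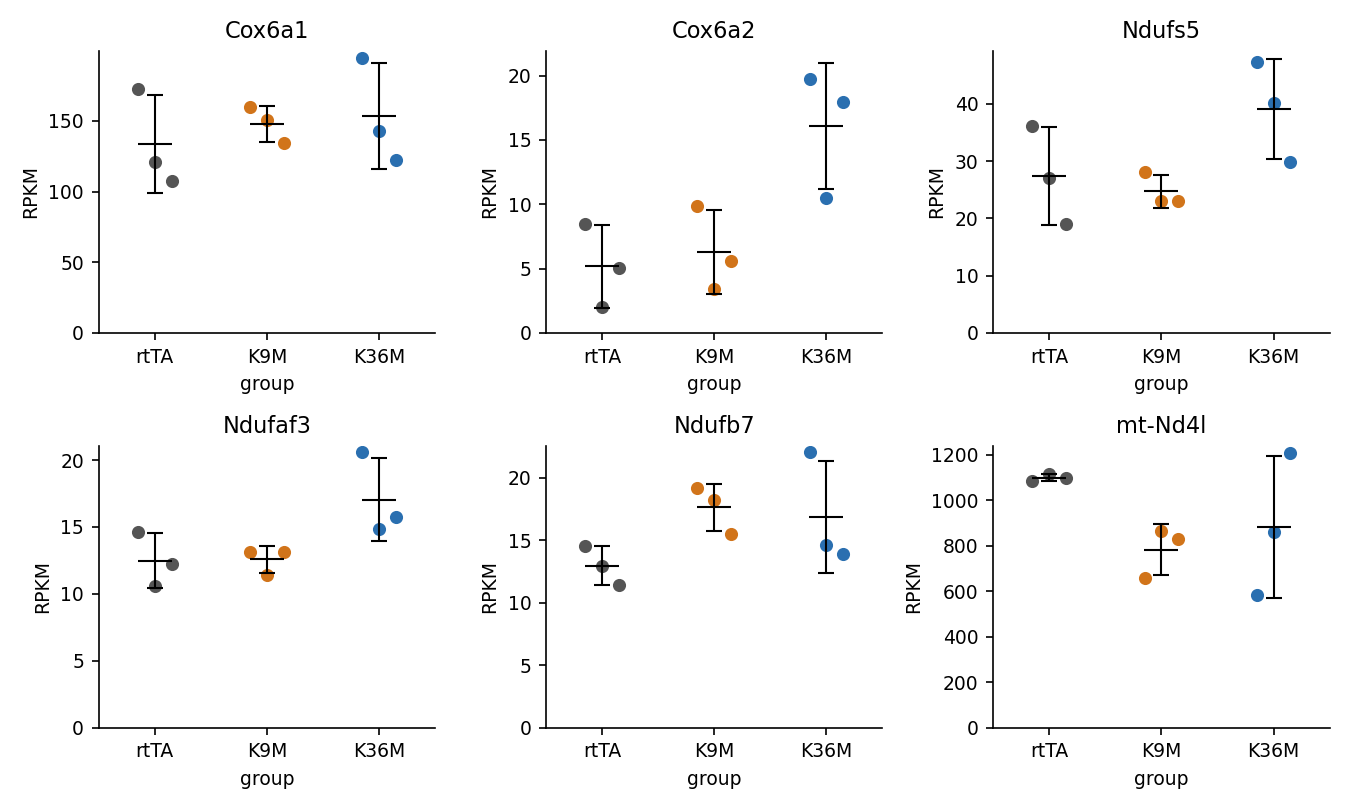
RPKM by library of Cox6a1, Cox6a2, Ndufs5, Ndufaf3, Ndufb7 and mt-Nd4l in rtTA, K9M and K36M, 3 points a group in the order of replicates 1 to 3, with the mean and SD (n = 3) in black and axes from 0. Cox6a2 in K36M (10.5 to 19.7) lies above all other libraries (2.03 to 9.85), and mt-Nd4l in K9M (657 to 865) lies below rtTA (1085 to 1116).

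Genes around the complexes were read from the same fit, in which 0.116%, 1.5% and 2.52% of all genes were called in K9M against rtTA, K36M against rtTA and K36M against K9M. Assembly factors outside the rule had 35 tested genes and 0 calls in each comparison. Their median log2 fold changes were 0.15, 0.07 and -0.01, in the same order of comparisons as for every list of this kind. Of 18 tested electron carriers, coenzyme Q genes and the ATP synthase inhibitor, 1 was called. Adck3, a kinase-like protein needed for coenzyme Q, stood at 6.90, 6.09 and 8.47 RPKM in rtTA, 8.34, 6.38 and 7.76 in K9M and 2.66, 4.40 and 4.10 in K36M, below both other groups. It fell in K36M against K9M (log2 fold change -0.94, limma adjusted p 0.0444) and had -0.87 against rtTA with an adjusted p of 0.0659. Cycs, cytochrome c, stood at 10.4 to 11.3 RPKM in rtTA, 11.5 to 14.2 in K9M and 13.2 to 19.1 in K36M (log2 fold change 0.44 for K36M against rtTA, limma adjusted p 0.157).

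Genes that express the mitochondrial genome had 25 tested members, 0 calls and medians of 0.003, 0.10 (0.098) and 0.017. Tfam packages mitochondrial DNA and helps to start its transcription. It stood at 16.19, 16.57 and 16.59 RPKM in rtTA, 21.6, 20.6 and 17.5 in K9M and 18.6, 17.9 and 16.64 in K36M. Every library of both mutant groups lay above every control, K36M replicate 3 only narrowly. Against rtTA its log2 fold change was 0.26 for K9M and 0.10 for K36M, at limma adjusted p of 0.637 and 0.634. The mt- members had medians below 0 in both comparisons, though only 4 of 13 lay below all controls in K9M and 0 in K36M. Outside the rule, mt-Rnr1 and mt-Rnr2 had log2 fold changes of 0.03 and 0.13 for K9M against rtTA. For K36M against rtTA these were -0.39 and -0.35. Every group of these ribosomal RNAs overlapped the controls, and their limma adjusted p ran from 0.372 to 0.984. Polrmt, the mitochondrial RNA polymerase, stood at 5.82 to 9.43 RPKM in rtTA, 6.83 to 6.92 in K9M and 8.19 to 8.68 in K36M. The 14 tested regulators of mitochondrial biogenesis had 0 calls and medians of 0.0003, -0.030 and 0.051. Ppargc1a, a coactivator of respiratory genes in other tissues, stayed below the filter at 0.117 to 0.317 RPKM. Nrf1 stood at 4.78 to 6.01 RPKM in the 9 libraries. Gabpb1 stood at 10.8 to 11.85 RPKM in rtTA, 11.8 to 13.2 in K9M and 9.01 to 9.59 in K36M, below both other groups. Its log2 fold change in K36M was -0.28 against rtTA (limma adjusted p 0.156) and -0.39 against K9M (0.0656). Ppard lay above all controls in K36M (log2 fold change 0.48, limma adjusted p 0.229).

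Neighbouring pathways of fuel use were read from the same fit. The 18 tested tricarboxylic acid cycle genes had 0 calls and medians of 0.095, 0.20 and 0.069. Among them Cs, citrate synthase, stood at 64.3, 62.4 and 67.5 RPKM in rtTA, 66.6, 74.2 and 60.8 in K9M and 106.7, 79.0 and 106.6 in K36M, above both other groups, with a log2 fold change of 0.57 against rtTA (limma adjusted p 0.0752). Idh3b went the other way, at 26.9 to 29.1 RPKM in rtTA, 29.1 to 31.2 in K9M and 21.5 to 23.6 in K36M. Its log2 fold change was -0.30 against rtTA (limma adjusted p 0.115) and -0.38 against K9M (0.0544). Of the 18, 7 lay above all controls in all K36M libraries and 1 below, beside 11.6% and 10.6% of all genes. The 19 tested glycolysis genes had medians of 0.08, 0.26 and 0.09. Of the 19, Hk3, a hexokinase of myeloid cells, was called in K36M against K9M, where 2.52% of all genes were, at 24.4, 26.2 and 23.8 RPKM in K9M and 52.2, 35.5 and 64.4 in K36M (log2 fold change 0.98, limma adjusted p 0.0444). Slc2a3 and Pfkm of the same list lay below both other groups in K36M. Their log2 fold changes against rtTA were -0.66 and -0.24 (limma adjusted p 0.0539 and 0.179). Of the 19, 6 lay above all controls in all K36M libraries and 2 below, beside 11.6% and 10.6% of all genes. The 75 mitochondrial ribosomal protein genes had 0 calls and medians of 0.098, 0.14 and 0.037. Of the 85 tested cytosolic ribosomal protein genes 1 was called, Rps3a2, annotated as a processed pseudogene and lower in K36M against K9M, and the medians were 0.26, 0.06 and -0.19. Short coding genes had medians of 0.10, 0.051 and -0.06.

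Promoter sequence was examined because the nuclear members moved together. RefSeq windows of 250 bases before the start (GRCm38.p6) were found for 74 members, with 80 windows. The motif GCGCATGC, the core of the site bound by NRF1, occurred on either strand in 9 of 80 windows (11.2%), in 4.4% of 10889 windows of the other tested genes and in 2.3% of all 32851. This short form was chosen after longer forms had been searched in these windows. In the windows of Atp5l, Ndufa6, Ndufa8 and Sdhb it matched 1 strand. In the other 5 windows matches on both strands overlapped to form the full palindrome, and these are printed on the strand of the gene, with the matched bases in capitals, to show where it stands.
Atp5g2 (chr15:102671060-102671109, minus): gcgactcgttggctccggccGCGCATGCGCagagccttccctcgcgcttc
Atp5k (chr5:108434420-108434469, minus): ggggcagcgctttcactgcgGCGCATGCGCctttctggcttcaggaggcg
Cox6a1 (chr5:115349091-115349140, minus): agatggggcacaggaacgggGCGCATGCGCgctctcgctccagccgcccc
Ndufa11 (chr17:56717682-56717731, plus): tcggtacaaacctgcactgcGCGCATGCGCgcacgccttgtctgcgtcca
Ndufaf4 (chr4:24897950-24897999, plus): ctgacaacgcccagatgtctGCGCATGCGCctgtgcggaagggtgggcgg
It began 42, 50, 162, 60 and 113 bases before the start, in that order. Their levels ranged from 14.1 RPKM for Ndufaf4 to 145 for Cox6a1, and their log2 fold changes in K9M against rtTA were 0.13, 0.25, 0.18, 0.26 and -0.09. Searched on both strands, the ETS core CCGGAAG was in 16.2% of member windows and 14.1% of the other tested, the YY1 site AAGATGGC in 2.5% and 2.1%, CCAAT in 42.5% and 35.6%, the E-box CACGTG in 10.0% and 8.4%, and the SP1 box GGGCGG in 35.0% and 57.7%. None of these motifs contains another. A match is a stretch of letters and not a measured binding site.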

How the data were processed

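The deposited table holds RPKM for 37882 genes and 9 libraries, made by the authors with CASAVA 1.7, STAR and the mm10 build per the submitters' processing notes. How reads that fit several places were counted, and whether strand was used, is not stated there or in the labels. PolyA RNA is the labelled molecule, while the named kit is for total RNA. Values were analysed as log2(RPKM + 0.5) with limma 3.58.1 in R 4.3.3, 3 group means over 9 libraries, with eBayes and trend (6 residual degrees of freedom), for 12926 genes with at least 1 RPKM in at least 3 libraries. Tests were two-sided. The scale understates changes of low genes. The fit was tested on simulated data. Depths were estimated from the steps of low values. Of values worth up to 20 reads, 50.6% to 52.5% were whole within 0.02, too few for a count test. Copies came from blastn 2.17.0 on GENCODE M21 transcripts. Same-numbered rtTA and K36M libraries deviated together (correlations 0.414, 0.369 and 0.377 across genes), so that the replicate block is given there. Members, lists and tests were chosen with earlier results of these data known. Named were called members, the 2 members with the smallest p of each role in each comparison, all mt- members, isoform families and the 3 highest nuclear members of each complex.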

Additional observations from a re-analysis of the deposited data

How the results depend on the processing

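Across 22 alternatives for each comparison (other pseudocounts, filters, scalings, weights, the replicate block, only the 2 groups compared and each library left out), the fold changes of the named members stayed on the same side of 0 and of the threshold in 917 of 922 cases. Sdhd in K36M against K9M ranged from -0.0295 to 0.164 with a library left out, below 0 without K36M replicate 1 and without K9M replicate 3. With the replicate block 1 member was called in K36M against rtTA (Cox6a2) and 2 in K36M against K9M (Cox6a2 with an adjusted p of 0.0189 and Ndufs5 with 0.0436), where 286 of all genes were called higher and 309 lower in the latter, and 0 in K9M against rtTA. Same-numbered pairs correlated at 0.162, 0.0599 and 0.0174 for rtTA and K9M and at 0.0741, -0.171 and 0.053 for K9M and K36M, so that those numbers did not pair the samples. Under quantile normalization the mt- median in K9M against rtTA was -0.436, and with a library left out it ranged from -0.3 to -0.0876. The causes were not tested. With a library left out, the nuclear medians ranged from 0.0964 to 0.304 in K9M against rtTA, from 0.0365 to 0.286 in K36M against rtTA and from -0.119 to 0.089 in K36M against K9M. Under quantile normalization 2 of 13 mt- members were above 0 in K36M against rtTA, and 12 of 13 in K36M against K9M. The read alternatives, scaling to reads of genes that are not mt- genes and adding reads of copies, were chosen after seeing the data. Groups of 3 with differences near 0.2 on the log2 scale and the shared variation between libraries limit what single members can show.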
